A study of Caenorhabditis elegans with 12 samples.

Results

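The hedgehog-related and patched-related genes of *C. elegans* were taken as those with a symbol starting *wrt-*, *grd-*, *grl-*, *hog-*, *ptr-* or *ptc-* and a mean raw count of at least 10 over the libraries, with 1 table entry per gene. This gave 73 of the 20188 genes in the table, of which 46 encode hedgehog-related proteins (10 *wrt*, 15 *grd*, 20 *grl* and 1 *hog* gene) and 27 encode patched-related proteins (24 *ptr* and 3 *ptc* genes). They were measured in RNA from whole larvae, synchronised by bleaching and collected in the L3 stage at 31 hr after hatching, with 3 libraries for each of 4 strains. The study asked which gene expression changes accompany mutations in *lin-22*, which encodes a transcription factor of the Hairy and Enhancer of split family that acts in the seam cells, the stem cell-like cells of the lateral epidermis. *lin-22(icb38)* (strain MBA81) carries a deletion whose end nearer *lin-22* lies 2371 bp before its start codon, together with the seam cell marker wIs51. Per the paper, this deletion also removes part of the neighbouring gene *vrp-1*, and an insertion of *mca-3* sequence takes its place. The *icb38* strain thus differs from JR667 in more than *lin-22* sequence. *lin-22(ot267)* (OH4265) carries a premature stop codon in *lin-22* and the marker vtIs1. *lin-22(ot269)* (OH4271) carries a C-to-T change further upstream of *lin-22*, and vtIs1. The reference JR667 has wild-type *lin-22* and carries wIs51, a SCMp::GFP and unc-119(+) insertion on chromosome V, with unc-119(e2498::Tc1) on chromosome III. Each mutant was thus 1 strain, 2 of the 3 mutants differ from JR667 in the marker as well as in *lin-22*, and in those pairs the marker and the *lin-22* allele cannot be told apart. The mutants are called by their alleles below.

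*C. elegans* has no clear hedgehog protein and no *smoothened*, but it has a large set of genes whose products share the C-terminal autoprocessing (Hog) domain of hedgehog or carry the nematode-specific N-terminal Wart, Ground or Ground-like domains, which give *wrt*, *grd* and *grl* genes their names. The *ptc* and *ptr* genes encode membrane proteins with a sterol-sensing domain, related to the hedgehog receptor Patched. Many genes of both kinds are expressed in the epidermis and other cuticle-secreting epithelia in step with the moulting cycle, and loss of many *ptr* genes impairs moulting, growth or cuticle integrity.

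Of 87 genes of these families in the WBcel235 gene table, 84 had an entry in the count table, and *grl-30* and the pseudogenes *grl-32* and *grd-17* had none. The 11 genes under the minimum were *grd-8*, *grl-11*, *grl-19*, *grl-20*, *grl-23*, *grl-24*, *grl-25*, *grl-26*, *grl-28*, *grl-29* and *grl-31*. Nearest the minimum, *grl-25* (mean raw count 6.67) and *grl-26* (4.83) fell outside, and *grl-9* (16.2), *grl-17* (20.8), *grd-4* (20.9) and *wrt-7* (21.5) fell inside. All 73 genes passed the filter on low counts and were tested with 19696 entries in all. Their mean raw counts ran from 16.2 to 20555, and 61 of the 73 were at or above 100. Total counts per library were 56479069 to 78920246. Values below are counts divided by a size factor per library (normalised counts), and were compared within a gene only, since they are not divided by gene length. A difference was called when its adjusted p was at or below 0.1 (the quasi-likelihood test of edgeR, adjusted over all entries after Benjamini and Hochberg). SE is the standard error of a log2 fold change. The labels do not say whether the 3 libraries of a strain came from separate cultures, so p-values measure the spread between libraries. In RNA from whole larvae, fewer cells of a type and less RNA per cell cannot be told apart.

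As a check of the strains, *lin-22* had 270.0, 107 and 198 in *icb38*, 356, 336 and 293 in *ot267*, 167, 158 and 101 in *ot269* and 342, 251 and 267 in JR667 (normalised counts of *lin-22*, Y54G2A.1). The libraries of *ot269* lay below all JR667 libraries, with a log2 fold change of -1.01 (SE 0.279, edgeR adjusted p = 0.0207). Those of *icb38* overlapped JR667 (-0.57, edgeR adjusted p = 0.207), and so did those of *ot267* (0.20, edgeR adjusted p = 0.722), in which the lesion is a stop codon. Against *ot267*, both upstream alleles were called lower with no overlap. The log2 difference was -0.77 (edgeR adjusted p = 0.0834) for *icb38* and -1.21 (edgeR adjusted p = 0.0164) for *ot269*. By imaging of single mRNAs, the paper found no *lin-22* in seam cells of *icb38* and stronger signal in its intestine. RNA from whole larvae does not separate these tissues.

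Most calls were made in *ot269*, where 32 of the 73 genes (43.8%) were called against JR667, with 26.3% of all entries called. Of these, 28 were higher, where 12.9% of all entries were higher, and 4 were lower, where 13.4% were lower. The median log2 fold change was 0.35 over the 73 genes and 0.01 over all entries. Libraries did not overlap between the 2 strains for 30 of the 73 genes, and for 39.7% of all entries. Without *ot269* replicate 1 the count of called genes was 19, and leaving out any 1 of the 6 libraries gave 19 to 34. Library totals in place of the size factors moved the median of all entries by 0.12 on the log2 scale in this comparison and left 32 genes higher and 3 lower. Summed pharynx and intestine markers were lower, and summed seam cell markers higher, in every *ot269* library than in every JR667 library, and their part in these counts was not tested. By imaging of single mRNAs, the paper reports altered *elt-1* and *egl-18* in seam cells of *icb38*. Such genes can change within a cell, so their sum does not measure tissue content.

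In *ot267*, 13 of the 73 genes (17.8%) were called against JR667, with 8.7% of all entries called. Of these, 10 were higher and 3 lower, against 4.1% and 4.59% of all entries, and the median log2 fold change was 0.24 over the 73 genes and 0.01 over all entries. Libraries did not overlap for 17 genes (23.5% of all entries). The count was 9 to 22 when 1 library was left out, and was 22 without JR667 replicate 2. In *icb38*, 11 genes (15.1%) were called, close to the 16.2% of all entries called. Of these, 8 were higher and 3 lower, against 7.66% and 8.55% of all entries, with a median log2 fold change of 0.13 over the 73 genes and 0.01 over all entries. Libraries did not overlap for 14 genes (28.1% of all entries). The count of 11 called genes rested on single libraries. It was 18 without JR667 replicate 2, 5 without JR667 replicate 3 or *icb38* replicate 2, and 7 without *icb38* replicate 1 or 3. The 3 comparisons share the JR667 libraries and are not independent of each other. In an F-test over the 4 strains, 36 of the 73 genes (49.3%) were called, with 34.9% of all entries called. Against JR667, 34 of the 73 genes were called in no mutant, and the matching share of all entries was not computed.

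**Figure D1:**
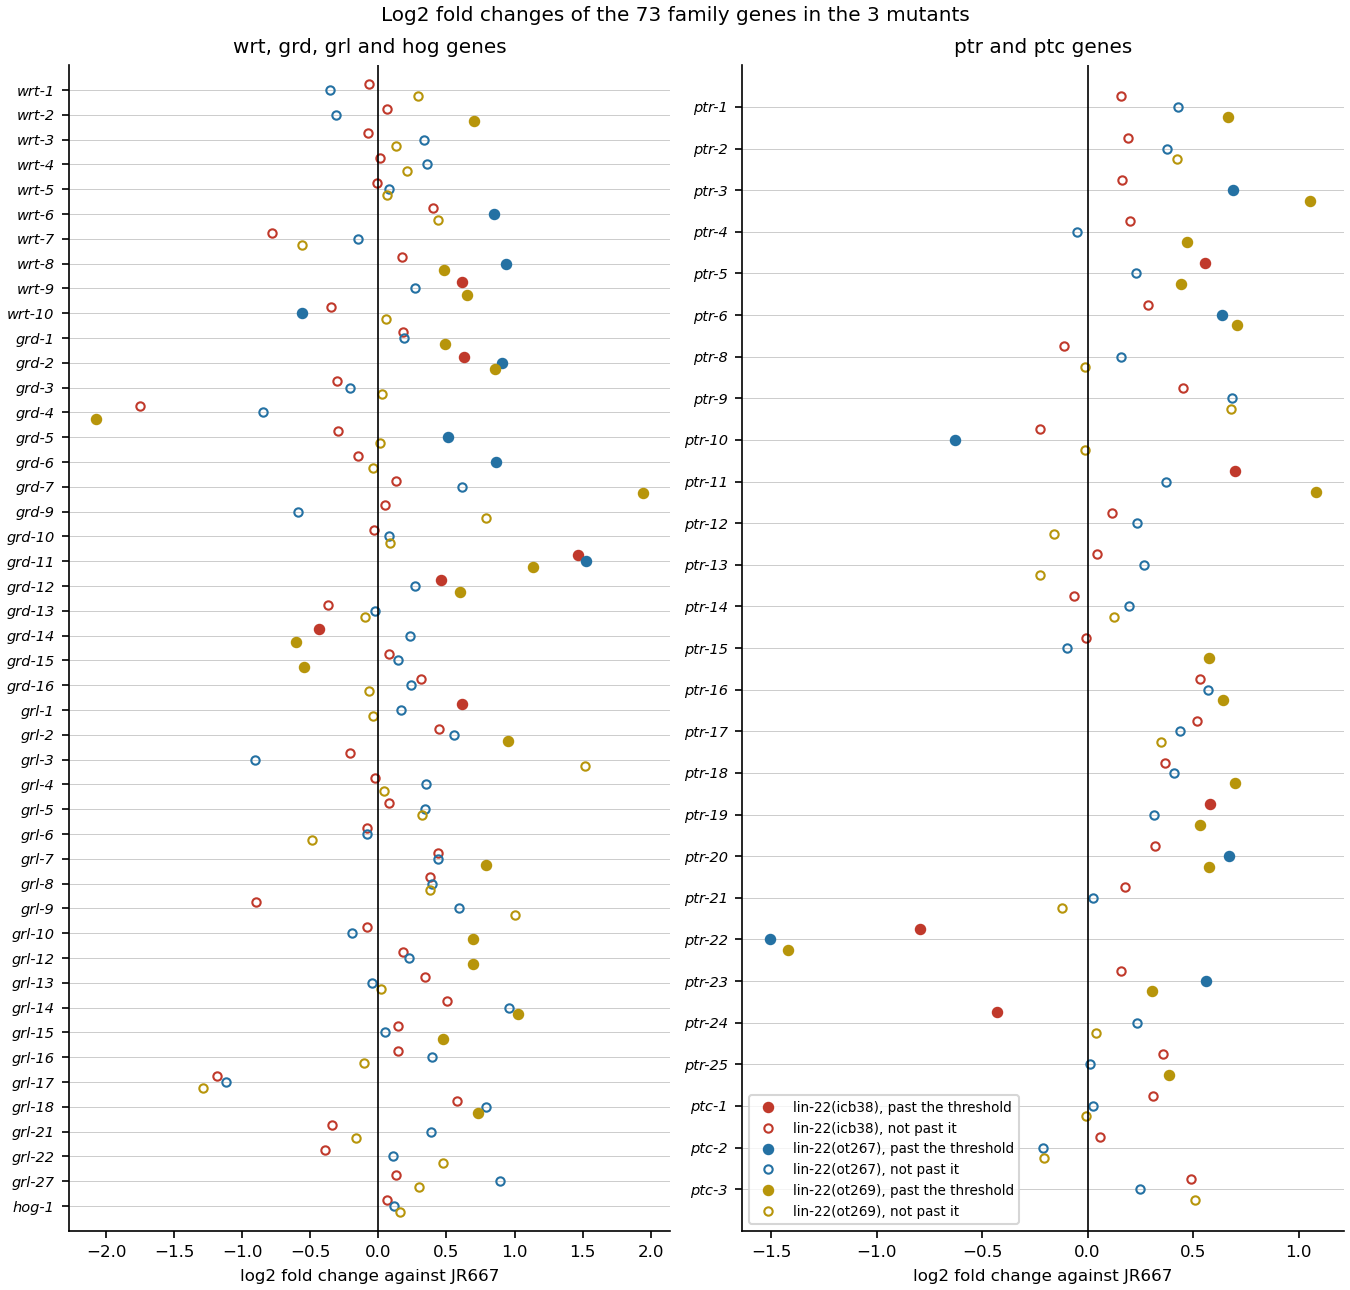
Log2 fold change against JR667 (horizontal axis) of each of the 73 genes (rows) in *icb38*, *ot267* and *ot269*, with filled points for genes called at an adjusted p of 0.1 or less by edgeR and open points for the others. Of *ot269*, 28 filled points lie to the right of 0, while *ptr-22* lies left of 0 in all 3 mutants.

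Among the 10 *wrt* genes, 3 were called in *ot269* (*wrt-2*, *wrt-8* and *wrt-9*, all higher), 3 in *ot267* (*wrt-6* and *wrt-8* higher, *wrt-10* lower) and 1 in *icb38* (*wrt-9*, higher). The shares were 30% in *ot269*, near the 26.3% of all entries, 30% in *ot267*, with 8.7% of all entries, and 10% in *icb38*, below the 16.2% of all entries. *wrt-2*, whose promoter is widely used to label seam cells and the epidermal syncytium, had 8161, 6996 and 6464 in *icb38*, 6293, 4314 and 6115 in *ot267*, 11349, 11795 and 10647 in *ot269* and 6467, 8735 and 5524 in JR667 (normalised counts, F52E4.6). The 3 *ot269* libraries lay above all the others, and *ot267* replicate 2 was the lowest of the 12. Its log2 fold change in *ot269* was 0.71 (SE 0.167, edgeR adjusted p = 0.00932) against JR667, 1.02 (SE 0.168, edgeR adjusted p = 0.00164) against *ot267* and 0.64 (SE 0.167, edgeR adjusted p = 0.0203) against *icb38*, and each of these passed in every fit that left out 1 library. Against JR667 *wrt-2* was 0.06 (edgeR adjusted p = 0.856) in *icb38* and -0.31 (edgeR adjusted p = 0.321) in *ot267*.

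*wrt-8* was highest in the stop-codon allele. It had 604, 1064 and 822 in *icb38*, 1573, 1249 and 1404 in *ot267*, 989, 1141 and 953 in *ot269* and 795, 727 and 681 in JR667 (normalised counts, C29F3.2). All *ot267* libraries lay above all libraries of the other strains, with a log2 fold change of 0.94 (SE 0.168, edgeR adjusted p = 0.0047) against JR667. *icb38* was lower than *ot267* by 0.76 (edgeR adjusted p = 0.00838) on the log2 scale. The call of *wrt-8* in *ot269*, 0.48 (edgeR adjusted p = 0.057), was lost without JR667 replicate 2 or 3 or *ot269* replicate 1 or 2. *wrt-6* (ZK377.1) was 0.85 (SE 0.201, edgeR adjusted p = 0.023) in *ot267*, a call lost without *ot267* replicate 3. For *wrt-9* (B0344.2), the values of 0.65 (edgeR adjusted p = 0.0485) in *ot269* and 0.61 (edgeR adjusted p = 0.0854) in *icb38* were lost without JR667 replicate 1 or 3 or *ot269* replicate 1 or 2 in the first case and without JR667 replicate 1 or 3 or *icb38* replicate 1 or 2 in the second, replicates 1 and 3 of JR667 having 1059 and 1083 normalised counts and replicate 2 having 1954.

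*wrt-1* and *wrt-10* are neighbours in the genome. *wrt-10* had 17001, 15447 and 17764 in *icb38*, 15142, 13154 and 15086 in *ot267*, 21769, 22748 and 22184 in *ot269* and 27295, 21661 and 15119 in JR667 (normalised counts, ZK1290.8). The JR667 libraries spanned a wider range than those of any mutant, and the *ot267* libraries lay within or just below it. The fall in *ot267* against JR667, -0.56 (SE 0.16, edgeR adjusted p = 0.0544), passed in 1 of the 6 fits that left out a library, the one without JR667 replicate 3. The tighter difference was that between the vtIs1 strains, where *ot269* was 0.62 (SE 0.16, edgeR adjusted p = 0.0299) above *ot267* with no overlap, lost only without *ot267* replicate 2. *wrt-1* (ZK1290.12) showed the same direction between these strains, at 0.65 (edgeR adjusted p = 0.051), lost without *ot267* replicate 2 or *ot269* replicate 1 or 3, and was not called in any mutant against JR667. *wrt-5* (W03D2.5a), at 485 to 807 normalised counts in the 12 libraries, had log2 fold changes against JR667 of -0.01 in *icb38*, 0.08 in *ot267* and 0.07 in *ot269*, none of them called. *wrt-3*, *wrt-4* and *wrt-7* were not called against JR667 either, and *wrt-7* had at most 42 raw counts in a library.

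The *grd* genes held the largest rise among well-counted genes in each mutant. *grd-11* (K02E2.2) had 242, 457 and 233 in *icb38*, 383, 216 and 372 in *ot267*, 272, 243 and 224 in *ot269* and 125, 131 and 80.0 in JR667 (normalised counts). Every mutant library lay above every JR667 library, and *icb38* replicate 2 was the highest of the 12. Log2 fold changes were 1.47 (SE 0.292, edgeR adjusted p = 0.0059) in *icb38*, 1.53 (SE 0.292, edgeR adjusted p = 0.00706) in *ot267* and 1.14 (SE 0.292, edgeR adjusted p = 0.0145) in *ot269*, and each was called in every fit that left out 1 library. No difference between mutants was called for *grd-11*.

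*grd-2* (F46B3.5) had 1592, 1962 and 1365 in *icb38*, 2304, 1494 and 2184 in *ot267*, 1820.3, 2047 and 1879.8 in *ot269* and 805, 1392 and 982 in JR667 (normalised counts). All *ot267* and *ot269* libraries lay above all JR667 libraries, while *icb38* replicate 3 lay just below JR667 replicate 2. In log2 terms the rise was 0.91 (edgeR adjusted p = 0.0145) in *ot267* and 0.85 (edgeR adjusted p = 0.00805) in *ot269*, and that in *icb38*, 0.63 (edgeR adjusted p = 0.0556), was lost without JR667 replicate 1 or 3 or *icb38* replicate 2.

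**Figure D2:**
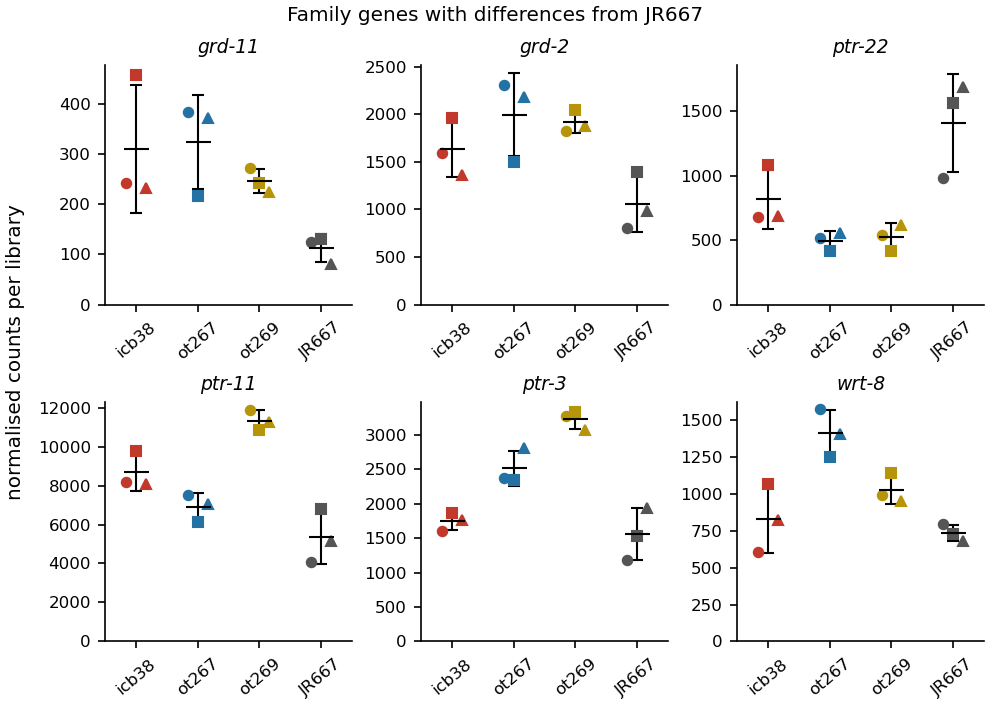
Normalised counts per library (vertical axis, from 0) of 6 genes in *icb38*, *ot267*, *ot269* and JR667, with circles, squares and triangles for replicates 1, 2 and 3 and the mean ± SD of 3 libraries as black marks. *grd-11* is higher in every mutant library than in JR667, *ptr-22* is lower in the *ot267* and *ot269* libraries, and *wrt-8* is highest in *ot267*.

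The *grd-5*, *grd-6* and *grd-14* genes set the stop-codon allele apart from the upstream alleles. *grd-5* had 8113, 8458 and 7723 in *icb38*, 13222, 12771 and 16584 in *ot267*, 9613, 10119 and 10298 in *ot269* and 9336, 9228 and 11243 in JR667 (normalised counts, F41E6.2). *ot267* lay above all other libraries, and the *icb38* libraries were the lowest of the 4 strains. The log2 difference was -0.81 (SE 0.116, edgeR adjusted p = 0.000505) for *icb38* against *ot267* and -0.50 (SE 0.116, edgeR adjusted p = 0.0159) for *ot269* against *ot267*, and *ot267* was 0.51 (edgeR adjusted p = 0.0178) above JR667.

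*grd-6* behaved likewise. It had 5389, 4387 and 4674 in *icb38*, 9889.9, 9167 and 10044 in *ot267*, 5125, 6098 and 4388 in *ot269* and 3701, 5326 and 6984 in JR667 (normalised counts, T18H9.1). Again no *ot267* library overlapped another strain. Its log2 difference was -1.01 (SE 0.182, edgeR adjusted p = 0.00225) for *icb38* and -0.90 (SE 0.181, edgeR adjusted p = 0.00704) for *ot269* against *ot267*, and *ot267* was 0.86 (edgeR adjusted p = 0.0121) above JR667.

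*grd-14* was low in the upstream alleles. It had 6470.4, 9860.3 and 8309 in *icb38*, 13185, 13718 and 12223 in *ot267*, 7526, 7951 and 6488 in *ot269* and 10799.6, 9462 and 13097 in JR667 (normalised counts, T01B10.2). The *ot269* libraries lay below all JR667 libraries, those of *icb38* overlapped JR667, and both lay below all of *ot267*. The log2 fold change against JR667 was -0.60 (SE 0.15, edgeR adjusted p = 0.0124) in *ot269* and -0.44 (SE 0.15, edgeR adjusted p = 0.0776) in *icb38*, where the call was lost without JR667 replicate 3 or *icb38* replicate 1 or 3. Against *ot267* it was -0.83 (edgeR adjusted p = 0.00322) in *ot269* and -0.67 (edgeR adjusted p = 0.00984) in *icb38*. Its genome neighbour *grd-4*, at 2 to 65 raw counts in a library, was called lower in *ot269* at -2.07 (edgeR adjusted p = 0.0618) and lost that call in 3 of the 6 fits (without JR667 replicate 3 or *ot269* replicate 1 or 3).

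Of the other *grd* genes, *grd-12* was called in *ot269* (0.60, edgeR adjusted p = 0.0207) and in *icb38* (0.46, edgeR adjusted p = 0.095, past the threshold in 1 of the 6 fits that left out a library, that without *icb38* replicate 1). In *ot269*, *grd-1* was 0.49 (edgeR adjusted p = 0.0871), lost without JR667 replicate 1 or 3 or *ot269* replicate 1, 2 or 3. *grd-7*, at a mean raw count under 100, was 1.94 (edgeR adjusted p = 0.0644) there, lost without JR667 replicate 2 or 3 or *ot269* replicate 1 or 2. *grd-15* was called lower at -0.55 (edgeR adjusted p = 0.0527), lost without JR667 replicate 1 or *ot269* replicate 1 or 3. None of these 3 was called in the other mutants against JR667. *grd-1* has a further entry that shares reads, and that entry was not called. *grd-15* (Y87G2A.15) was also lower in *ot269* than in both other mutants, by 0.69 against *ot267* (edgeR adjusted p = 0.0362) and by 0.63 against *icb38* (edgeR adjusted p = 0.0389) on the log2 scale, the first lost without *ot267* replicate 2 or *ot269* replicate 1 or 3 and the second lost without *icb38* replicate 2 or *ot269* replicate 1 or 3. The neighbours *grd-13*, *grd-3* and *grd-10* were called in no comparison by edgeR, though DESeq2 called *grd-13* in *icb38* against JR667, *grd-3* (W05E7.1) having 2293 to 2894 normalised counts in *icb38*, 1792 to 4275 in *ot267*, 3290 to 3418 in *ot269* and 3074 to 3570 in JR667. *grd-9* and *grd-16* were called in none by edgeR either, while DESeq2 called *grd-9* in *ot269* against *ot267*.

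Among the 20 *grl* genes the calls against JR667 were 7 in *ot269*, 0 in *ot267* and 1 in *icb38* with edgeR. These are 35.0% in *ot269*, with 26.3% of all entries, 0% in *ot267*, with 8.7%, and 5% in *icb38*, with 16.2%. In *ot267*, 4 *grl* genes had an unadjusted p under 0.05 and DESeq2 called 3 (*grl-14*, *grl-18* and *grl-27*). Of all 19696 entries, 3969 had such a p there and DESeq2 called 2542, so these *grl* counts were near those of all entries. The 7 were all higher (*grl-2*, *grl-7*, *grl-10*, *grl-12*, *grl-14*, *grl-15* and *grl-18*), with log2 fold changes of 0.47 to 1.02. The steadiest was *grl-10* (C26F1.5). It had 1819, 1782 and 1551 in *icb38*, 1713, 1442 and 1608 in *ot267*, 2989, 2879.8 and 2950.5 in *ot269* and 2068, 2009 and 1371 in JR667 (normalised counts). The *ot269* libraries lay close together above all the others. The log2 difference was 0.69 (SE 0.137, edgeR adjusted p = 0.00295) against JR667, 0.89 (SE 0.138, edgeR adjusted p = 0.000973) against *ot267* and 0.78 (SE 0.138, edgeR adjusted p = 0.00187) against *icb38*, each called in every fit that left out 1 library.

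*grl-7* had 7652, 9794 and 6705 in *icb38*, 8482, 5997 and 9717 in *ot267*, 10941, 10981 and 9016 in *ot269* and 4487, 7867 and 5509.9 in JR667 (normalised counts, T02E9.2a). The product of *grl-7* is secreted by the epidermis. Its *ot269* libraries lay above all JR667 libraries, those of the other mutants overlapped JR667, and the log2 fold change was 0.79 (SE 0.207, edgeR adjusted p = 0.0158) in *ot269*, 0.44 (edgeR adjusted p = 0.252) in *ot267* and 0.43 (edgeR adjusted p = 0.203) in *icb38*. *grl-12* was 0.70 (edgeR adjusted p = 0.0195) in *ot269*. *grl-2*, whose promoter marks the excretory duct and pore cells, was 0.95 (edgeR adjusted p = 0.0252), a call lost without *ot269* replicate 1. All *ot269* libraries of *grl-12* lay above all JR667 libraries, while those of *grl-2* did not. *grl-14* was 1.02 (edgeR adjusted p = 0.055), lost without JR667 replicate 1 or 2 or *ot269* replicate 1 or 2. *grl-15* was 0.47 (edgeR adjusted p = 0.094), lost without JR667 replicate 1 or 3 or *ot269* replicate 1, 2 or 3. *grl-18*, with a promoter that marks inner labial socket glia, was 0.73 (edgeR adjusted p = 0.0699), lost without JR667 replicate 3 or *ot269* replicate 1 or 2, though all its *ot269* libraries lay above all JR667 libraries. *grl-1* (C24G6.7) was called higher in *icb38* at 0.61 (edgeR adjusted p = 0.0574), lost without JR667 replicate 2 or 3 or *icb38* replicate 2 or 3.

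*grl-21* (ZC168.5) was low in *icb38* relative to *ot267*. It had 3804, 3006 and 4624 in *icb38*, 5704, 7975 and 5238 in *ot267*, 3789.5, 4763 and 4341 in *ot269* and 5103, 3550.2 and 5808 in JR667 (normalised counts). *icb38* lay below all *ot267* libraries, by 0.73 on the log2 scale (edgeR adjusted p = 0.0274), lost without replicate 2 of either strain, and no mutant differed from JR667 by a called amount. The other *grl* genes not called against JR667 by edgeR were *grl-3*, *grl-4*, *grl-5*, *grl-6*, *grl-8*, *grl-9*, *grl-13*, *grl-16*, *grl-17*, *grl-22* and *grl-27*, of which DESeq2 called *grl-6* in *ot269* and *grl-27* in *ot267*. *grl-3*, *grl-9*, *grl-13* and *grl-17* had mean raw counts under 100 and log2 fold changes of -1.29 to 1.52 in *ot269* that the test did not separate from 0. *hog-1* (W06B11.4), which encodes a Hog domain without a Wart or Ground domain, had 1149 to 1296 normalised counts in *icb38*, 1120 to 1392 in *ot267*, 1206 to 1376 in *ot269* and 1008 to 1276 in JR667 and was called in no comparison by edgeR or DESeq2, with no unadjusted p under 0.05.

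In *ot269*, 14 of the 27 patched-related genes (51.9%) and 18 of the 46 hedgehog-related genes (39.1%) were called, with 26.3% of all entries called. The difference between these shares was not tested. All 14 were among the 24 *ptr* genes (58.3%). Of the 14, 13 *ptr* genes were higher, by 0.31 to 1.08 on the log2 scale, and *ptr-22* was lower. In *ot267* 4 were higher (*ptr-3*, *ptr-6*, *ptr-20* and *ptr-23*) and 2 lower (*ptr-10* and *ptr-22*). In *icb38* 3 were higher (*ptr-5*, *ptr-11* and *ptr-19*) and 2 lower (*ptr-22* and *ptr-24*). Of the 24 *ptr* genes, this is 25% called in *ot267* and 20.8% in *icb38*, with 8.7% and 16.2% of all entries.

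*ptr-22* (Y80D3A.7) showed the largest fall among the 73 genes in *ot267*. It had 678, 1085 and 687 in *icb38*, 518, 415 and 559.5 in *ot267*, 542, 418 and 622 in *ot269* and 981, 1568 and 1687 in JR667 (normalised counts). The *ot267* and *ot269* libraries lay below all JR667 libraries, and *icb38* replicate 2 lay above JR667 replicate 1. On the log2 scale *ptr-22* was -1.51 (SE 0.228, edgeR adjusted p = 0.00143) in *ot267* and -1.42 (SE 0.227, edgeR adjusted p = 0.00065) in *ot269*, called in every fit that left out 1 library. In *icb38* it was -0.79 (SE 0.223, edgeR adjusted p = 0.0355) and was lost without JR667 replicate 3 or *icb38* replicate 1 or 3. Compared directly, *icb38* was 0.71 (edgeR adjusted p = 0.054) above *ot267*, lost without replicate 2 of either strain, and *ot269* was -0.63 (edgeR adjusted p = 0.0841) against *icb38*, lost without *icb38* replicate 2 or *ot269* replicate 1 or 2.

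*ptr-11* had 8173, 9765 and 8104 in *icb38*, 7522, 6142 and 7074 in *ot267*, 11890.5, 10840.4 and 11247 in *ot269* and 4052, 6802 and 5165 in JR667 (normalised counts, F56C11.2). All *ot269* libraries lay above all libraries of the other strains and all *icb38* libraries above all of JR667, while *ot267* overlapped JR667. The log2 fold change against JR667 was 1.08 (SE 0.155, edgeR adjusted p = 0.000258) in *ot269*, 0.70 (SE 0.154, edgeR adjusted p = 0.0102) in *icb38* and 0.37 (edgeR adjusted p = 0.184) in *ot267*, and *ot269* was 0.71 (edgeR adjusted p = 0.011) above *ot267*. *ptr-3* had 1607, 1864 and 1762 in *icb38*, 2379, 2349.6 and 2809 in *ot267*, 3281, 3334 and 3066 in *ot269* and 1188, 1538 and 1940.2 in JR667 (normalised counts, C41D7.2). For *ptr-3* it was *icb38* that overlapped JR667 (0.17, edgeR adjusted p = 0.516), and the other mutants lay above it. The log2 fold change was 1.05 (SE 0.146, edgeR adjusted p = 0.000202) in *ot269* and 0.69 (SE 0.145, edgeR adjusted p = 0.012) in *ot267*, and *ot269* was 0.89 (edgeR adjusted p = 0.00104) above *icb38*.

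*ptr-15* (T07H8.6), like *wrt-2* and *grl-10*, was high in *ot269* against each other strain. It had 1610.1, 1831 and 1707 in *icb38*, 1558, 1429.7 and 1846 in *ot267*, 2442, 2593 and 2672 in *ot269* and 1989, 1783 and 1393 in JR667 (normalised counts). The *ot269* libraries lay above all others, which overlapped one another. The log2 difference was 0.58 (edgeR adjusted p = 0.00717) against JR667, 0.67 (edgeR adjusted p = 0.00548) against *ot267* and 0.58 (edgeR adjusted p = 0.00926) against *icb38*, with each call kept in every fit that left out 1 library. *ptr-10* (F55F8.1), whose promoter is used to mark glia, was low in the stop-codon allele. It had 3458, 3427 and 3561 in *icb38*, 2555, 2584 and 2759 in *ot267*, 3886, 3729.5 and 4484 in *ot269* and 4919, 4084 and 3201 in JR667 (normalised counts). All *ot267* libraries lay below all the others, by 0.63 against JR667 on the log2 scale (SE 0.131, edgeR adjusted p = 0.0116), and *ot269* was 0.62 (edgeR adjusted p = 0.0101) above *ot267*. *ptr-24* (F46G10.5) was low in the deletion allele. It had 4280.5, 3385 and 3808 in *icb38*, 5638, 5937 and 6609.8 in *ot267*, 5325, 5420.2 and 5136 in *ot269* and 3996, 5928 and 5533 in JR667 (normalised counts). *icb38* lay below all *ot267* libraries, at -0.66 (SE 0.135, edgeR adjusted p = 0.00531), but reached into the range of JR667, and its call against JR667 (-0.43, edgeR adjusted p = 0.0561) was lost without JR667 replicate 2 or 3 or *icb38* replicate 2 or 3.

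**Figure D3:**
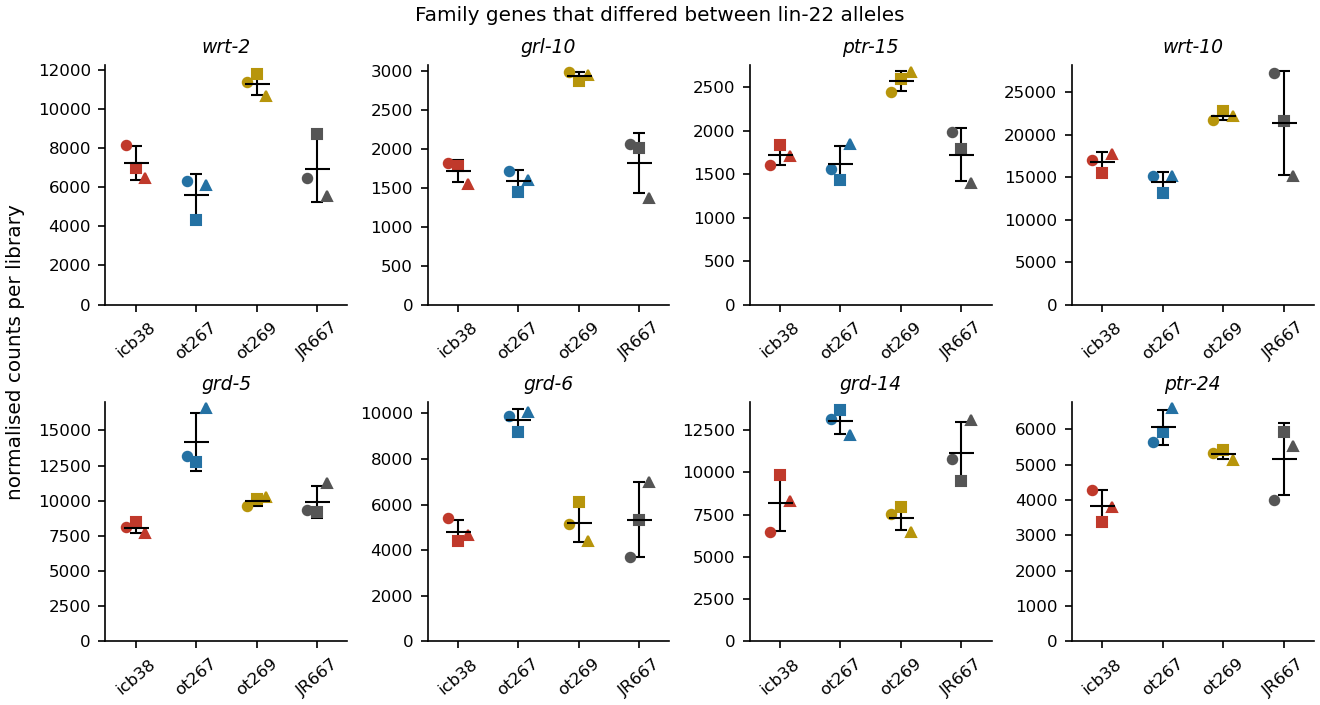
Normalised counts per library (vertical axis, from 0) of 8 genes in *icb38*, *ot267*, *ot269* and JR667, with circles, squares and triangles for replicates 1, 2 and 3 and the mean ± SD of 3 libraries as black marks. *wrt-2*, *grl-10* and *ptr-15* are highest in *ot269*, *grd-5* and *grd-6* are highest in *ot267*, and the JR667 libraries of *wrt-10* spread from 15119 to 27295.

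*ptr-4*, needed for the apical extracellular matrix and cuticle barrier of the epidermis, had 19539, 21939.8 and 19189.5 in *icb38*, 17809, 14169.8 and 19041 in *ot267*, 24906, 23752 and 24560.2 in *ot269* and 17076, 20189 and 15534 in JR667 (normalised counts, C45B2.7). The *ot269* libraries lay above all the others, at 0.47 (edgeR adjusted p = 0.0174) against JR667 and 0.52 (edgeR adjusted p = 0.0215) against *ot267*, the second lost without *ot267* replicate 2. *ptr-1* (C24B5.3) was 0.67 (edgeR adjusted p = 0.00509) in *ot269*, with no overlap with JR667. *ptr-18*, which has been reported to clear GRL-7 from the epidermal surface, had 9382, 13909 and 9963 in *icb38*, 11348, 8676 and 14285 in *ot267*, 15149, 13604 and 13138 in *ot269* and 6639, 11043 and 8138 in JR667 (normalised counts, Y38F1A.3), with 0.70 (edgeR adjusted p = 0.0263) in *ot269* and no call in the other mutants. *ptr-23* (ZK270.1) was 0.56 (edgeR adjusted p = 0.0141) in *ot267*, with no overlap with JR667, and 0.31 (edgeR adjusted p = 0.0927) in *ot269*, lost without JR667 replicate 1 or 2 or *ot269* replicate 1 or 2. For *ptr-5* all *icb38* and *ot269* libraries lay above all JR667 libraries. It was 0.56 (edgeR adjusted p = 0.0097) in *icb38* and 0.44 (edgeR adjusted p = 0.0194) in *ot269*, both called in every fit that left out a library. The *ot267* and *ot269* libraries of *ptr-6* and *ptr-20* lay above all JR667 libraries. *ptr-6* was 0.71 (edgeR adjusted p = 0.00433) and *ptr-20* 0.58 (edgeR adjusted p = 0.021) in *ot269*. In *ot267* they were 0.64 and 0.67, calls lost without *ot267* replicate 3. *ptr-19* was 0.58 (edgeR adjusted p = 0.0415) in *icb38* and 0.53 (edgeR adjusted p = 0.0401) in *ot269*, the first lost without JR667 replicate 1 or 3 or *icb38* replicate 1 or 2 and the second lost without JR667 replicate 1 or 3 or *ot269* replicate 2. In *ot269*, *ptr-16* was 0.64 (edgeR adjusted p = 0.0518), lost without JR667 replicate 1 or 3 or *ot269* replicate 1 or 2. *ptr-25* was 0.39 (edgeR adjusted p = 0.0787), lost without JR667 replicate 1 or 3 or *ot269* replicate 1, 2 or 3.

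*ptr-2*, *ptr-8*, *ptr-9*, *ptr-12*, *ptr-13*, *ptr-14*, *ptr-17* and *ptr-21* were not called against JR667 by edgeR, and neither were the 3 *ptc* genes, the closest relatives of Patched. DESeq2 called *ptr-2* in *ot269*. *ptc-1* had 15077, 15418 and 14291 in *icb38*, 12517, 12499 and 11673 in *ot267*, 11917, 12286 and 11705 in *ot269* and 8001, 13926 and 14151 in JR667 (normalised counts, ZK675.1). *ptc-1* is known for its role in the cytokinesis of the germline. JR667 replicate 1 stood far below the other JR667 libraries, and the log2 fold change was 0.31 (edgeR adjusted p = 0.243) in *icb38*, 0.02 (edgeR adjusted p = 0.952) in *ot267* and -0.01 (edgeR adjusted p = 0.984) in *ot269*. *ptc-3*, an essential gene needed for moulting and sterol transport, had 10989.7, 11586 and 8526 in *icb38*, 9813, 7526 and 8940.5 in *ot267*, 10843, 10551 and 10172 in *ot269* and 4489.7, 10516 and 7139 in JR667 (normalised counts, Y110A2AL.8b), and JR667 replicate 1 was again the lowest of the 12 libraries. Its log2 fold change was 0.49 (edgeR adjusted p = 0.178) in *icb38*, 0.25 (edgeR adjusted p = 0.564) in *ot267* and 0.51 (edgeR adjusted p = 0.12) in *ot269*. *ptc-2* (F21H12.4) had 372 to 501 normalised counts in *icb38*, 276 to 433 in *ot267*, 303 to 376 in *ot269* and 247 to 490.1 in JR667. *ptc-3* has 3 entries that share reads, and none of them was called by edgeR in a mutant against JR667. At an unadjusted p under 0.05 the 3 *ptc* genes gave 1 in *icb38* and 1 in *ot269*, both *ptc-3*, and DESeq2 called *ptc-3* in *ot269*. Of all 19696 entries, 4983 in *icb38* and 6414 in *ot269* had such a p, and DESeq2 called 5883 in *ot269*.

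Between the mutants, 13 of the 73 genes (17.8%) were called for *ot269* against *ot267*, which share the marker vtIs1, with 9.93% of all entries called. Of these 8 were higher (5.63% of all entries) and 5 lower (4.3%), and libraries did not overlap for 31 genes (30.6% of all entries). The 8 were *grl-10*, *ptr-4*, *ptr-10*, *ptr-11*, *ptr-15*, *wrt-1*, *wrt-2* and *wrt-10*, and the 5 were *grd-5*, *grd-6*, *grd-14*, *grd-15* and *ptr-13*. *ptr-13* was -0.49 (edgeR adjusted p = 0.0284), lost without *ot267* replicate 2 or *ot269* replicate 2 or 3. For *icb38* against *ot267*, 12 genes (16.4%) were called and 18.1% of all entries, with 3 higher (7.91% of all entries), 9 lower (10.2%) and no overlap for 22 genes (33.4%). The 3 were *ptr-5*, *ptr-10* and *ptr-22*, and the 9 were *grd-5*, *grd-6*, *grd-14*, *grl-21*, *ptr-3*, *ptr-23*, *ptr-24*, *wrt-3* and *wrt-8*. The count was 7 without *icb38* replicate 2, and scaling by library totals gave a split of 1 higher and 14 lower. *ot269* and *icb38* carry different lesions upstream of *lin-22*, a base change and a deletion, and different markers. For *ot269* against *icb38*, 12 genes (16.4%) were called and 18.3% of all entries. Of these, 9 were higher (9.75% of all entries) and 3 lower (8.53%), with no overlap for 26 genes (36.8%). The 9 were *grl-10*, *grl-12*, *grl-22*, *ptr-1*, *ptr-3*, *ptr-6*, *ptr-15*, *ptr-24* and *wrt-2*, and the 3 were *grd-15*, *grl-1* and *ptr-22*. The count was 5 without *ot269* replicate 1, and the split was 16 higher and 1 lower with library totals, which moved the median of all entries by 0.12.

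Within strains, the median coefficient of variation of the 73 genes over 3 libraries was 14% in *icb38*, 17.8% in *ot267*, 9.70% in *ot269* and 23.2% in JR667, against 12.5%, 12.3%, 8.82% and 15.3% over all entries with a count in the strain concerned. In *icb38*, replicate 2 held the highest value for 39 of the 73 genes (53.4%, against 31.9% of all entries) and for 19 of the 27 patched-related genes (70.4%). In *ot267*, replicate 2 held the lowest value for 46 of the 73 genes (63.0%, against 31.5% of all entries). In JR667, replicate 1 held the lowest value for 18 of the 27 patched-related genes (66.7%, against 39.6% of all entries) but for 14 of the 46 hedgehog-related genes (30.4%). In *ot269*, replicate 3 held the lowest value for 41 genes (56.2%, against 34.7% of all entries).

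**Figure D4:**
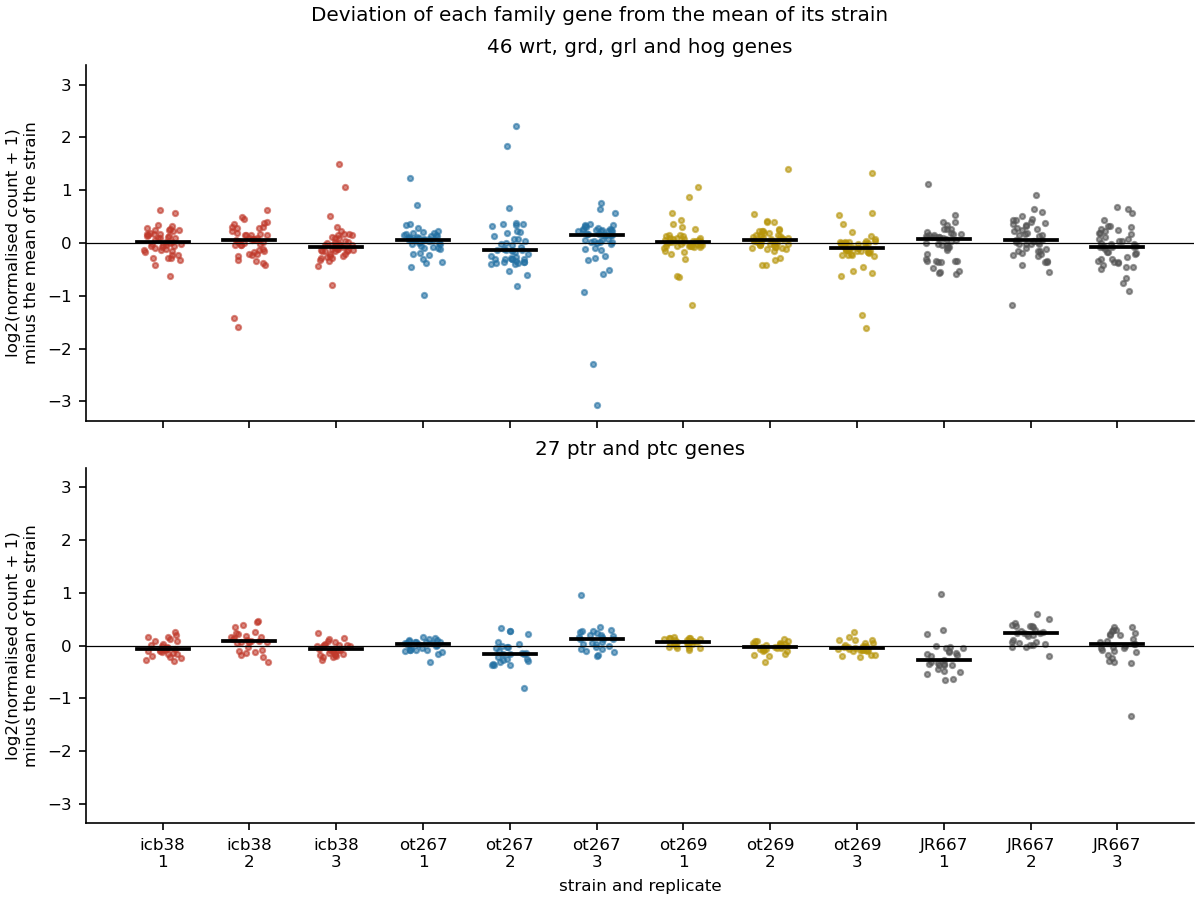
Difference of each gene's log2(normalised count + 1) from the mean of its strain (vertical axis) in each of the 12 libraries (horizontal axis), for the 46 *wrt*, *grd*, *grl* and *hog* genes (top) and the 27 *ptr* and *ptc* genes (bottom), with 1 point per gene and the median as a black line. The patched-related genes sit below 0 in JR667 replicate 1 (median -0.27) and above it in JR667 replicate 2 (median 0.23), while their medians lie between -0.05 and 0.07 in the *ot269* libraries.

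The summed normalised counts of 22 moulting genes were 314591 to 442105 in *icb38*, 251988 to 304322 in *ot267*, 443806 to 467794 in *ot269* and 278963 to 393547 in JR667. The sum was lowest in replicate 2 of *ot267* and in replicate 1 of JR667, whose replicate 3 was close to it at 291512. Single genes did not all follow the sum, and *fbn-1*, *mlt-7* and *nhr-23* were highest in replicate 2 among the *ot267* libraries, while *mlt-8* and *nas-37* were lowest in replicate 3 among those of JR667. Against JR667, 9 of the 22 rose and 3 fell in *ot269* (54.5% called, with 26.3% of all entries), 1 rose and 3 fell in *ot267* (18.2%, with 8.7% of all entries), and 1 rose and 3 fell in *icb38* (18.2%, close to the 16.2% of all entries). The 6 furrow collagens summed to 95208 to 112312 in *icb38*, 61502 to 82008 in *ot267*, 117007 to 124736 in *ot269* and 76261 to 123152 in JR667, lowest in *ot267* replicate 2 and JR667 replicate 3 of those strains, and all 6 were called higher in *ot269* than in *ot267*, where 5.63% of all entries were called higher. Against JR667, 4 of the 6 were called in *ot267*, all lower, with 4.59% of all entries lower, and edgeR and DESeq2 called 0 in *ot269* and in *icb38*, with 0 at an unadjusted p under 0.05. The blister collagen *bli-1* (C09G5.6), a component of the cuticle's struts, had 175, 114 and 112 normalised counts in *icb38*, 242, 985 and 181 in *ot267*, 141, 201 and 150.1 in *ot269* and 1486, 5407 and 10298 in JR667, so that JR667 was both higher and more spread than any mutant.

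Normalised counts of 5 seam cell genes (*elt-1*, *egl-18*, *ceh-16*, *bro-1* and *nhr-73*) summed to 3291 to 3772 in *icb38*, 2409 to 2794 in *ot267*, 3968 to 4469 in *ot269* and 1898 to 2864 in JR667, and the sums of *icb38* and *ot269* lay above all those of JR667. The paper reports changes of *egl-18* and *ceh-16* in *icb38* and *ot269* from this same RNA sequencing. Separately, by imaging of single mRNAs, it reports altered *elt-1* and *egl-18* in single seam cells of *icb38*. More seam cells and more RNA of these genes per cell thus cannot be told apart here. The summed counts of 4 epidermal genes (*dpy-7*, *dpy-13*, *elt-3* and *rol-6*) overlapped between each mutant and JR667. They were 165014 to 242371 in *icb38*, 141951 to 200125 in *ot267*, 156298 to 175440 in *ot269* and 142331 to 197965 in JR667. Most of this sum came from collagen genes, with *dpy-13* at 80069 or more in every library and *elt-3* as low as 1310. *rol-6* is also a strain marker gene, and reads from a marker cannot be told apart from those of the gene itself. The overlap therefore does not show that epidermal content was alike. No defining marker of the epidermal or seam cell lists was at 0. Markers of 2 other tissues separated *ot269* from JR667. The 3 pharynx genes (*myo-1*, *myo-2* and *ceh-22*) summed to 81336 to 158257 in *icb38*, 80473 to 84980 in *ot267*, 53614 to 64111 in *ot269* and 82999 to 114246 in JR667. The 4 intestine genes (*elt-2*, *ges-1*, *act-5* and *ifb-2*) summed to 125028 to 152252 in *icb38*, 109691 to 140273 in *ot267*, 105875 to 108940 in *ot269* and 123019 to 142230 in JR667. In both lists all *ot269* sums lay below all JR667 sums, while those of *icb38* and *ot267* overlapped JR667. Sums of 3 body wall muscle genes were 551844 to 887328 in *icb38*, 529921 to 559083 in *ot267*, 442229 to 449936 in *ot269* and 412822 to 723827 in JR667, with the lowest in JR667 replicate 1. Sums of 4 neuronal genes (8625 to 11904 over the 12 libraries) and 4 germline genes (21386 to 49340) overlapped between each mutant and JR667. The part of larval timing or of tissue content in the values above was not tested.

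A further list of 8 genes held relatives of hedgehog signalling genes of other animals. It also held relatives of the sterol-related proteins NPC1 (*ncr-1* and *ncr-2*) and SCAP (*scp-1*). Of the 8, 4 were called in *icb38* (50%, with 16.2% of all entries), 0 in *ot267* (with 8.7%) and 5 in *ot269* (62.5%, with 26.3%). At an unadjusted p under 0.05, the count in *ot267* was 1 (*ncr-2*), and DESeq2 also called 1, the same gene. Of all 19696 entries, 3969 had such a p in *ot267* and DESeq2 called 2542. *qua-1*, a Hog domain gene required for moulting, had 41245, 44985 and 32816 in *icb38*, 32765, 22756 and 38664 in *ot267*, 48151, 52330.1 and 46730.0 in *ot269* and 16994, 35928 and 23478 in JR667 (normalised counts, T05C12.10). The *ot269* libraries lay above all JR667 libraries and those of *icb38* and *ot267* overlapped them, with JR667 replicate 1 the lowest of the 12. Its log2 fold change was 0.95 (edgeR adjusted p = 0.0111) in *ot269*, 0.64 (edgeR adjusted p = 0.0931) in *icb38*, lost without replicate 1 of either strain, JR667 replicate 3 or *icb38* replicate 2, and 0.30 (edgeR adjusted p = 0.492) in *ot267*. *tra-1*, the sex-determination gene related to the Gli factors, was 0.74 (edgeR adjusted p = 0.00743) in *ot269* and 0.64 (edgeR adjusted p = 0.0252) in *icb38*. *che-14*, related to Dispatched, and *daf-6*, a patched-related gene that shapes the lumen of glial channels, were higher in *ot269*, at 0.39 (edgeR adjusted p = 0.0328) for *che-14* and 0.63 (edgeR adjusted p = 0.00654) for *daf-6*. The call of *che-14* was lost without JR667 replicate 3 or *ot269* replicate 1.

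*ncr-2*, one of the pair of genes related to the cholesterol transporter NPC1, had 33.1, 45.3 and 60.3 in *icb38*, 42.2, 49.5 and 67.2 in *ot267*, 21.3, 38.6 and 23.7 in *ot269* and 101, 74.8 and 178 in JR667 (normalised counts, F09G8.4). Every mutant library lay below every JR667 library, at -2.07 (edgeR adjusted p = 0.00303) in *ot269*, -1.34 (edgeR adjusted p = 0.0427) in *icb38* and -1.15 (edgeR adjusted p = 0.11) in *ot267*, the last outside the threshold. The call in *icb38* was lost without JR667 replicate 3 or *icb38* replicate 1 or 2. Its relative *ncr-1* had log2 fold changes of 0.14 in *icb38*, -0.09 in *ot267* and 0.04 in *ot269*, and *scp-1*, related to the SREBP escort protein SCAP, had -0.01 in *icb38*, -0.07 in *ot267* and -0.13 in *ot269*, none of them called. *ptd-2*, at 42 to 154 raw counts per library, was -0.89 (edgeR adjusted p = 0.066) in *icb38*, lost in 4 of 6 fits (without JR667 replicate 2 or 3 or *icb38* replicate 1 or 2).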

How the data were processed

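The study sequenced mRNA libraries, prepared with a strand-preserving kit from TRIzol-extracted RNA of L3 larvae, in 4 strains with 3 libraries each. Per the labels and the study's methods, the authors used Bowtie2 for alignment and bedtools to count reads per transcript, and deposited counts as whole numbers, not normalised. The genome build and whether counting used strand are not given in the sources used here, so reads of overlapping genes cannot be separated, and no coordinates are printed. A table of normalised values was also deposited and was not used here. Gene names and neighbours came from RefSeq's WBcel235 table, which matched 23133 of 23953 entries. For a gene with several entries, the one with the highest mean count was taken.

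Counts were tested with edgeR 4.0.16 in R 4.3.3 (glmQLFit and glmQLFTest), in place of the DESeq the study used, in 1 fit of 12 libraries with RLE size factors, filterByExpr with a count minimum of 10 and Benjamini-Hochberg adjustment over 19696 entries. The adjusted p threshold of 0.1 is the study's FDR. Standard errors are the absolute log2 fold change over the square root of F. Replicates differed by more than sampling noise (chi-square per entry at least 13.9).

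Genes described are up to 6 with the largest rise and 6 with the largest fall per comparison among called genes whose higher strain averaged 100 normalised counts or more, those called in the same direction in all 3 mutants, and a list named whatever their values. Further genes are named to account for every family gene and were chosen after their values were seen. The families, lists and rules were chosen with earlier results of these data known. On simulated counts of 19696 entries for *lin-22(icb38)* against JR667, the test recovered 167 of 200 entries (83.5%) given a log2 change of 1.5 with 26 false calls, and 0 entries were called when nothing was changed. The simulated entries varied independently of each other, and the change was larger than most of those described. It therefore gives neither the share of smaller changes found nor the rate of false calls among genes that shift together in a library. The results were recomputed with TMM normalisation, with library totals, at a threshold of 0.05, with no filter, a replicate block, 1 entry per gene, only the 6 libraries compared, DESeq2 1.42.0 and fits leaving out 1 library. A planned description of promoter motifs was not made, because no promoter sequences were at hand. Tables and plots were made with Python 3.11.15, pandas 2.3.3, numpy 2.4.6 and matplotlib 3.10.9.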

Additional observations from a re-analysis of the deposited data

How the results depend on the processing

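Single values were followed for the genes chosen by the naming rules above and for *lin-22*, not for those named only to account for every family gene. None of their log2 fold changes reversed its sign past the threshold under any alternative. Of 4032 values of these genes under the alternatives, 3743 kept their side of the threshold, 203 lost it and 86 gained it. Counts of called genes over the 73, both directions together, stayed within 1.5 times the values in the report under TMM normalisation, library totals, no filter, 1 entry per gene and DESeq2. DESeq2 gave 15 for *lin-22(icb38)*, 18 for *lin-22(ot267)* and 35 for *lin-22(ot269)* against JR667. Over all 19696 entries it called more as well, at 3889, 2542 and 5883 in these comparisons, where edgeR called 3192, 1713 and 5176. Split by direction or family, some moved further. Higher calls were 16 in place of 9 for *lin-22(ot269)* against *lin-22(icb38)* and 1 in place of 3 for *lin-22(icb38)* against *lin-22(ot267)* with library totals, and with DESeq2 lower calls were 6 in place of 3 and *grd* calls 7 in place of 4 for *lin-22(icb38)* against JR667, and *grl* calls 3 in place of 0 for *lin-22(ot267)* against JR667. At a threshold of 0.05 the count was 5 for *lin-22(icb38)* and 21 for *lin-22(ot269)* against JR667. With only the 6 libraries compared, which estimate the spread from fewer libraries, it was 4 for *lin-22(icb38)* against JR667, 22 for *lin-22(ot269)* against *lin-22(ot267)* and 26 for *lin-22(ot269)* against *lin-22(icb38)*. Replicate numbers did not pair the libraries, since same-numbered libraries of different strains had deviations correlated at -0.14 to 0.06. With a replicate block the count was 7 for *lin-22(icb38)*, 13 for *lin-22(ot267)* and 27 for *lin-22(ot269)* against JR667, and the cause of each such shift was not tested. With each library left out in turn, the counts against JR667 were 5 to 18 for *lin-22(icb38)*, 9 to 22 for *lin-22(ot267)* and 19 to 34 for *lin-22(ot269)*. Between mutants they were 10 to 15 for *lin-22(ot269)* against *lin-22(ot267)*, 7 to 12 for *lin-22(icb38)* against *lin-22(ot267)* and 5 to 10 for *lin-22(ot269)* against *lin-22(icb38)*, and the F-test gave 26 to 40. Of the called genes, 3 of 11 in *lin-22(icb38)*, 9 of 13 in *lin-22(ot267)* and 18 of 32 in *lin-22(ot269)* against JR667 were called in every fit that left out 1 library. Of the 73 genes, 12 had mean raw counts under 100, among them *grd-4* and *grd-7*, whose log2 fold changes in *lin-22(ot269)* against JR667 had standard errors of 0.731 and 0.693.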
